A study of Mus musculus with 7 samples.

Results

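Gene expression in hematopoietic stem and progenitor cells (HSC/P) was compared with that in Ly6G+ granulocytes of mice that carried a RUNX1 mutation together with HMGA2 overexpression (RUNX1mut/HMGA2-OE). The comparison took 3 of the 7 RNA sequencing libraries of the series, 2 of HSC/P and 1 of Ly6G+ cells. Of the 28987 genes listed, 12155 reached at least 1 TPM, a share of transcripts normalized for length and library, in at least 2 of these 3 libraries and were tested. The mice were of strain C57BL/6, and each library came from the bone marrow of an individual animal, of unstated age and sex. HSC/P were enriched by positive selection for CD117, the product of Kit, and the mutant clone was then sorted, whereas mutant myeloid cells were sorted directly as Ly6G+. All 3 libraries carry both alterations. The labels state neither the RUNX1 allele, nor what drives HMGA2, nor the marker of the mutant clone. They tie no HSC/P library to the animal of the Ly6G+ library, so the cells were treated as unpaired. The HMGA2-OE HSC/P library and the HMGA2-OE Ly6G+ library, 1 of each and without the RUNX1 mutation, served to compare the same step of maturation. The remaining libraries were Ly6G+ cells of control mice and of mice with the RUNX1 mutation alone (RUNX1mut), 1 of each. Every Ly6G+ library was thus of a different genotype. Where the HSC/P pair was set against all Ly6G+ libraries, genotype was mixed into the difference and its error.

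Granulocytes arise from progenitors in the marrow and fill their granules in a fixed order as they mature. Primary granules hold myeloperoxidase and the serine proteases and are loaded by promyelocytes, secondary granules hold lactoferrin and collagenase and are loaded by myelocytes, and tertiary granules and secretory vesicles are added last. Division stops before the last stages, while chemotactic receptors and the phagocyte oxidase appear. RUNX1 and the C/EBP factors are transcription factors of this lineage, and HMGA2 is an architectural chromatin protein of fetal stem cells.

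Kit and Ly6g, the genes behind the markers used to isolate the cells, separated the libraries. Kit (ENSMUSG00000005672, mm10 chromosome 5, 75574916 to 75656722), the stem cell factor receptor, stood at 155 and 134 TPM in HSC/P and at 4.43 TPM in Ly6G+ cells. Ly6g (ENSMUSG00000022582, mm10 chromosome 15, 75155240 to 75159126), a surface protein of mouse neutrophils, stood at 7.28 and 16.8 TPM in HSC/P and at 441 TPM in Ly6G+ cells. The Ly6G+ library lay outside the HSC/P pair for both genes, a weak criterion with 1 library on that side. After scaling, the difference of HSC/P minus Ly6G+ on the log2(TPM + 1) scale was 3.37 ± 0.17 (SE) for Kit and -6.65 ± 0.49 for Ly6g, with limma adjusted p of 0.00184 and 0.00284. Both were used for the isolation, so these values check the labels and are no finding. The progenitor genes Cd34 (239 and 157 against 7.61 TPM) and Myb (190 and 163 against 12.7 TPM) and the granulocyte genes below pointed the same way.

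The altered genes were detected in every library. Hmga2 (ENSMUSG00000056758, mm10 chromosome 10, 120361275 to 120476469) stood at 176 and 138 TPM in HSC/P and at 12.1 TPM in Ly6G+ cells, a log2 difference of 2.12 ± 0.22 (limma adjusted p = 0.00491). Runx1 (ENSMUSG00000022952, mm10 chromosome 16, 92601466 to 92826149) stood at 219 and 225 TPM in HSC/P and at 21.2 TPM in Ly6G+ cells, a log2 difference of 1.84 ± 0.12 (adjusted p = 0.00234). Endogenous, introduced and mutant copies of either gene share these TPM. In bulk RNA, fewer cells of a type and less RNA per cell cannot be told apart.

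The libraries differed in makeup as well as in cell type. The columns summed to 922874 and 935711 TPM in HSC/P and to 984650 TPM in Ly6G+ cells. The 10 most abundant genes took 38.08% of TPM in Ly6G+ cells against 9.107% and 9.088% in HSC/P. Read depth is unknown, because TPM keep no counts. Libraries were therefore scaled by a trimmed mean, with factors of 1.40 and 1.44 for HSC/P and 0.496 for Ly6G+ cells, so that a gene at equal TPM in all libraries has a negative fitted difference. Without scaling the median difference of all tested genes was 1.29, against 0.05 with it, and every direction below is relative to the scaled median. Across genes, which are not independent replicates, log2 values correlated at a Pearson r of 0.971 within the HSC/P pair and at 0.661 and 0.640 between HSC/P and Ly6G+ cells.

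Most tested genes differed between the cell types. By limma with Benjamini-Hochberg adjustment at 0.05, 3856 of 12155 genes (31.7%) were higher in HSC/P and 4036 (33.2%) were higher in Ly6G+ cells, 64.9% in either direction. A difference of at least 4-fold in both HSC/P libraries, a rule of size without a test, was met by 1014 genes (8.34%) in favor of HSC/P and by 1562 (12.9%) in favor of Ly6G+ cells. Without scaling the limma calls split as 7646 against 1562, and with upper quartile scaling as 5415 against 2727, so 83% or 66.5% of calls were higher in HSC/P in place of 48.9%. Only the HSC/P pair gave a spread, a single residual degree of freedom, and Ly6G+ cells were assumed to vary to the same extent. The p-values thus rest on the spread of that pair and on a variance that limma borrows across genes, which gave 2.52 of 3.52 degrees of freedom. They measure no spread among Ly6G+ animals. An exact permutation test of 2 libraries against 1 cannot go below p = 0.333 for any single gene. The 2125 tested genes under 1 TPM in Ly6G+ cells entered the test through HSC/P alone, and 1279 of them were called higher there. With no filter on TPM 20916 genes were tested, and 2711 of the HSC/P calls and 2207 of the Ly6G+ calls remained; Hp, S100a8, Cebpb, Cebpe, Spi1, Ctsg, Mpo and Hbb-bs were among the named genes whose call was lost. On the other side, 733 genes at 1 TPM or more in Ly6G+ cells reached that level in no HSC/P library and were not tested.

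**Figure D1:**
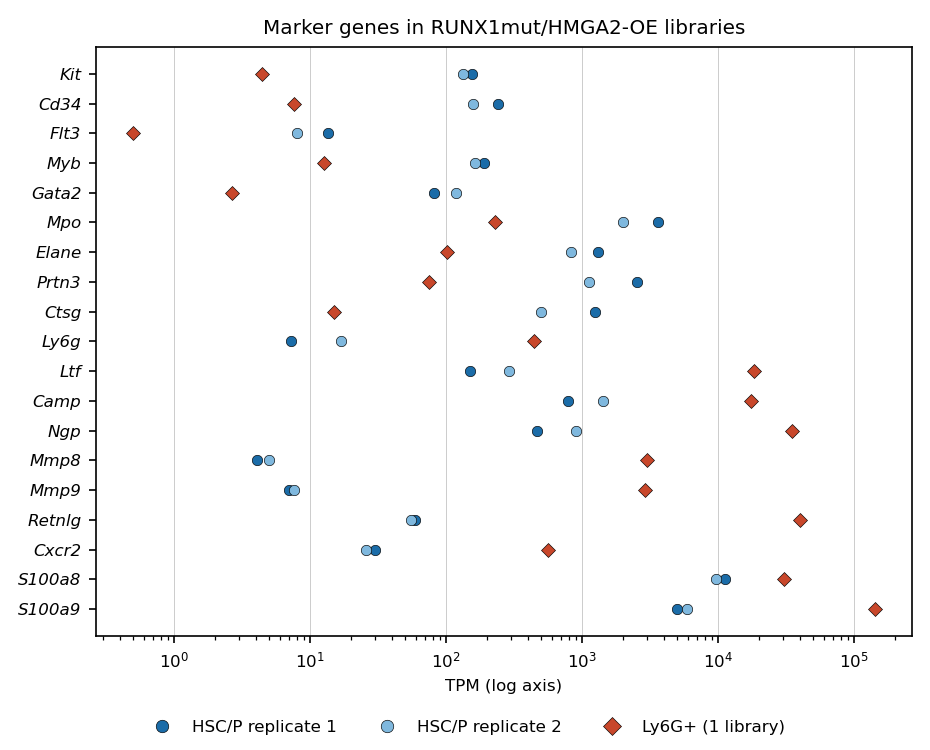
TPM (log axis) of 19 marker genes in the RUNX1mut/HMGA2-OE libraries, with 1 point per library: HSC/P replicates 1 and 2 as circles and the single Ly6G+ library as a diamond. Kit lies at 155 and 134 against 4.43 TPM, and Mmp8 at 4.05 and 5.04 against 3013 TPM.

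Genes of the secondary granule stood far higher in Ly6G+ cells. All 20 tested members of a list of 25 passed in that direction, 19 of them by at least 4-fold in both libraries, with a median log2 difference of -5.91. The other members, Orm2, Lyzl4, Crisp3, Arg1 and Ptx3, stood under 1 TPM in at least 2 of the libraries. Mmp8, which encodes neutrophil collagenase, stood at 4.05 and 5.04 TPM in HSC/P and at 3013 TPM in Ly6G+ cells (log2 difference -10.50 ± 0.16, limma adjusted p = 0.00161). Ltf, which encodes lactoferrin, stood at 151 and 290 TPM against 18314 TPM (-7.96 ± 0.43, adjusted p = 0.00192). Ngp, a cystatin-like granule protein gene, stood at 467 and 902 TPM against 35186 TPM (-7.28 ± 0.44, adjusted p = 0.00215). HSC/P replicate 2 was the higher of the pair for each of these genes, though not for every member of the list. Camp, which encodes the antimicrobial peptide cathelicidin, followed the same order, with 782 and 1437 TPM in HSC/P against 17568 TPM (-5.57 ± 0.41, adjusted p = 0.00277). Lcn2, an iron-siderophore binding protein gene, stood at 350 and 442 against 18231 TPM, and Cd177, a neutrophil surface protein gene, at 32.8 and 45.4 against 2890 TPM.

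Promoters of 4 of these genes are printed because they moved together. The windows are the 250 bases before the annotated start, from RefSeq on GRCm38.p6 and in the direction of the gene, with capitals for matches to the C/EBP motif TTGCNNAA on either strand.

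Mmp8 (chr9:7558179-7558428, plus strand): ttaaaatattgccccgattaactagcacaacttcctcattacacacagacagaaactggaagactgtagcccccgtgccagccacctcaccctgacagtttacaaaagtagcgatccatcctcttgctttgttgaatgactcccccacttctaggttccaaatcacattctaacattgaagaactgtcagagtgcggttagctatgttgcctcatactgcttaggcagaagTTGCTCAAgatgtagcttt

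Ltf (chr9:111019042-111019291, plus strand): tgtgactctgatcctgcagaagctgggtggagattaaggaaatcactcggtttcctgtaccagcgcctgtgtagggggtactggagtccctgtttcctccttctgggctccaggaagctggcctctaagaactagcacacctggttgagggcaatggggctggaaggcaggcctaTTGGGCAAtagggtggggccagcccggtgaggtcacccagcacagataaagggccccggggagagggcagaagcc

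Ngp (chr9:110419558-110419807, plus strand): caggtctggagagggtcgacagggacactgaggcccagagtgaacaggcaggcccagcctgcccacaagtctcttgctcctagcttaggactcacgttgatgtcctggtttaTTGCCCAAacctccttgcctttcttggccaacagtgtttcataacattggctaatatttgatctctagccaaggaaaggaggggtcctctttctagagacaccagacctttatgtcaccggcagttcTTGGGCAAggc

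Camp (chr9:109849457-109849706, minus strand): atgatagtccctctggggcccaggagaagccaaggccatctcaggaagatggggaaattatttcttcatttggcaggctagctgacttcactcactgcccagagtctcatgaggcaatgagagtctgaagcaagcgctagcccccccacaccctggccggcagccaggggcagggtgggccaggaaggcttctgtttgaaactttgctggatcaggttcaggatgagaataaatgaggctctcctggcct

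Mmp8 and Ltf each held 1 match, Ngp held 2 and Camp held none. Windows were matched by symbol for 21 of the 25 secondary granule members, and 9 of them (42.9%) held a match. The share was 9.55% over the promoters of all 27025 genes, 7.57% over tested genes, and it was 117 of 1166 over genes at least 4-fold higher in Ly6G+ cells. The RUNX motif TGTGGT was in 3 of the 21 windows (14.3%), against 14.2% of all promoters. The PU.1 motif GAGGAA was in 11 (52.4%), against 23.1% of all promoters, and the GATA motif AGATAA in 4 (19.0%), against 10.3%. Orm2, Crisp3 and Ptx3, which hold C/EBP matches, and Lyzl4, which holds a PU.1 match, were not tested for expression. Both strands were searched for every motif, matches of different motifs were counted separately even where they share bases, and a match describes the letters in the window only.

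Primary granule genes divided. Of 18 members 16 were tested, and 5 were higher in HSC/P and 8 in Ly6G+ cells, against 31.7% and 33.2% of all tested genes. The median of -0.70 turned to 0.74 without scaling. The genes higher in HSC/P were Mpo, which encodes myeloperoxidase, the serine protease genes Elane, Ctsg and Prtn3, and Calr, a chaperone gene, at 998 and 714 against 84.2 TPM (adjusted p = 0.0104). Mpo stood at 3642 and 2012 TPM in HSC/P against 228 TPM in Ly6G+ cells (log2 difference 2.05 ± 0.43, limma adjusted p = 0.0234). Elane, neutrophil elastase, stood at 1307 and 833 against 101 TPM (1.85 ± 0.34, adjusted p = 0.0169). Ctsg, cathepsin G, stood at 1245 and 496 against 14.99 TPM (4.15 ± 0.64, adjusted p = 0.0112). Prtn3, proteinase 3, had a difference of 2.98 ± 0.58 (adjusted p = 0.0188). HSC/P replicate 1 was the higher of the pair for all 4 protease and peroxidase genes. Among secondary granule genes, replicate 2 was the higher for Mmp8, Ltf, Ngp and Camp. Replicate 1 was the higher for others, such as Anxa1 (292 and 209 TPM). With a filter of 1 TPM in 1 library, the adjusted p was 0.0768 for Mpo, 0.0606 for Elane and 0.0687 for Prtn3. Lysozyme and the acute phase gene Hp, which is also on the secondary granule list, lay on the other side. Lyz2 stood at 620 and 554 TPM in HSC/P against 45407 TPM in Ly6G+ cells (-7.79 ± 0.17, adjusted p = 0.00161), and Hp at 141 and 78.0 against 1572 TPM (-5.41 ± 0.43, adjusted p = 0.00308).

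Tertiary granule and secretory vesicle genes were higher in Ly6G+ cells in all 13 tested of 15 members, 11 of them by at least 4-fold in both libraries, with a median of -5.29. Mmp9, gelatinase B, stood at 7.04 and 7.66 TPM in HSC/P and at 2899 TPM in Ly6G+ cells (-9.89 ± 0.13, limma adjusted p = 0.00161). Fpr1, a receptor for bacterial formyl peptides, stood at 1.03 and 2.74 against 599 TPM (-9.07 ± 0.37, adjusted p = 0.00164). Adam8, a membrane protease gene, and Slc11a1, a metal transporter of phagosomes, had differences of -8.04 ± 0.25 and -5.93 ± 0.17. The HSC/P libraries lay close together for Mmp9 and stood far below the Ly6G+ library for each of these genes.

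The list of mature neutrophil genes had 38 of 44 members tested, of which 35 were higher in Ly6G+ cells, 32 by at least 4-fold in both libraries, with a median of -5.99. Retnlg, a resistin-like secreted protein gene, had the largest fitted difference of any named gene, at 59.0 and 55.2 TPM in HSC/P against 39656 TPM in Ly6G+ cells (-10.92 ± 0.13, limma adjusted p = 0.00161). S100a9, a subunit of calprotectin, stood at 4956 and 5953 against 141870 TPM (-6.23 ± 0.20, adjusted p = 0.00161). Its partner S100a8 stood at 11165 and 9687 against 30622 TPM (-3.08 ± 0.21, adjusted p = 0.00251). Thus S100a8 exceeded S100a9 in HSC/P, and S100a9 exceeded S100a8 in this Ly6G+ library. In the Ly6G+ libraries of the other genotypes S100a8 was the higher. It took 44.33% of TPM against 8.436% for S100a9 in control, 40.24% against 8.284% in RUNX1mut and 55.01% against 7.125% in HMGA2-OE cells. The stefin genes, cysteine protease inhibitors that lie as near-identical copies and whose reads may be split between them, were also among the largest differences, with -10.00 ± 0.14 for Stfa2l1 and -9.29 ± 0.40 for Stfa1. The aspartic protease gene Asprv1 (-8.66 ± 0.33), the chemokine gene Ccl6 (-8.38 ± 0.38), the interleukin-36 gene Il1f9 (-8.12 ± 0.18) and the chitinase-like gene Chil1 (-8.08 ± 0.21) passed as well. The 3 tested members that did not pass included the chemokine receptor genes Cxcr1 and Cxcr4. Cxcr1 stood at 4.06 and 1.86 against 0.471 TPM (0.62 ± 0.43, adjusted p = 0.279). Cxcr4, the marrow retention receptor, stood at 84.2 and 64.6 against 19.4 TPM (0.40 ± 0.23, adjusted p = 0.209). These TPM were higher in HSC/P in both libraries, while the scaled differences did not pass. Cxcr4 passed without scaling and with upper quartile scaling.

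All 9 genes of the phagocyte NADPH oxidase, which makes superoxide, were tested and were higher in Ly6G+ cells, with a median of -4.20. Cybb, the catalytic subunit, stood at 44.6 and 34.8 TPM in HSC/P against 647 TPM in Ly6G+ cells (-5.51 ± 0.22, limma adjusted p = 0.00162). Its membrane partner Cyba stood at 288 and 268 against 2092 TPM (-4.43 ± 0.14), the cytosolic activator Ncf1 at 88.3 and 118 against 825 TPM (-4.51 ± 0.21) and the GTPase gene Rac2 at 181 and 175 against 1151 TPM (-4.20 ± 0.12). HSC/P held RNA of all 4 genes, at a lower level than Ly6G+ cells in both libraries.

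Adhesion and migration genes were mostly higher in Ly6G+ cells, with 18 of 25 passing in that direction and 1 in the other (median -3.70). C5ar1, the receptor for complement C5a, stood at 2.83 and 3.44 against 482 TPM (-8.25 ± 0.17, limma adjusted p = 0.00161). Cxcr2, the receptor for neutrophil chemokines, stood at 30.1 and 26.0 against 566 TPM (-5.79 ± 0.17, adjusted p = 0.00161), and Itgam, the integrin chain CD11b, at 27.5 and 21.7 against 592 TPM (-6.04 ± 0.21, adjusted p = 0.00161). Itga6, a laminin receptor chain, was the gene higher in HSC/P, at 99.3 and 168 against 14.99 TPM (1.56 ± 0.35, adjusted p = 0.0265, and 0.0775 with a filter of 1 TPM in 1 library).

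**Figure D2:**
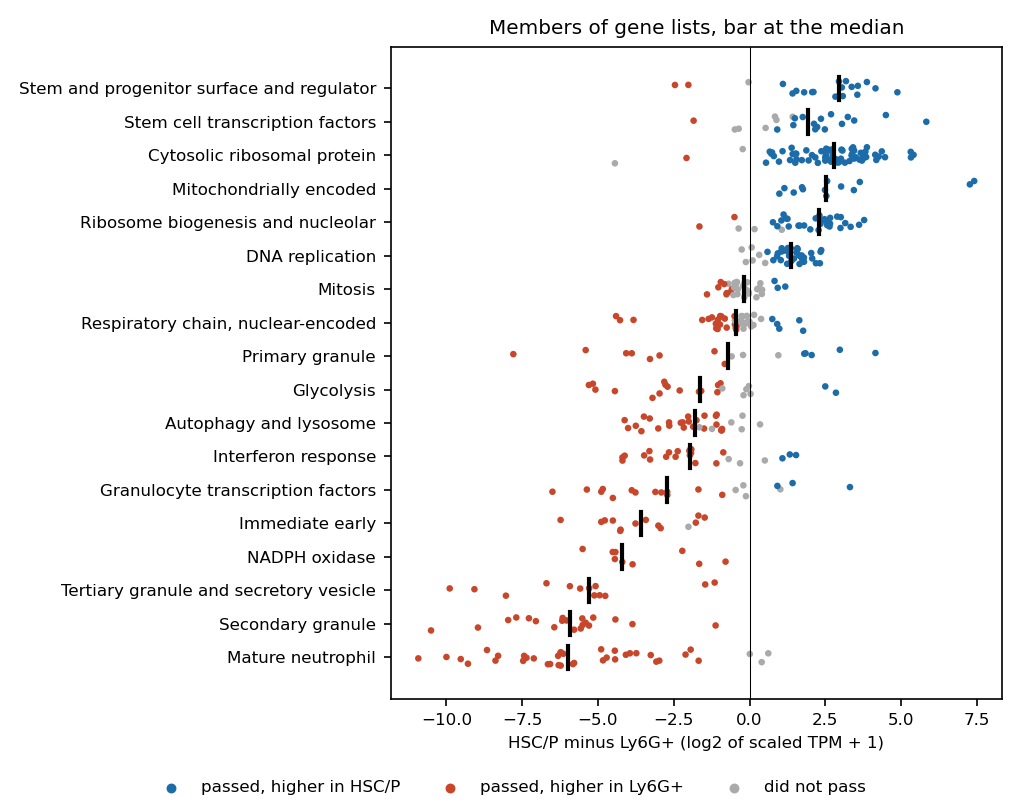
Fitted log2 difference of HSC/P minus Ly6G+ cells for tested members of 18 gene lists, 1 point per gene, with a bar at each list's median. Members of the secondary granule list (median -5.91) lie on the Ly6G+ side and most ribosomal protein genes (median 2.77) on the HSC/P side, while primary granule genes lie on both.

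Cytokine receptor genes were in both directions. Of 25 tested members 6 were higher in HSC/P and 15 in Ly6G+ cells, against 31.7% and 33.2% of all tested genes (median -1.50). Csf3r, the G-CSF receptor, stood at 70.5 and 62.3 TPM against 620 TPM (-4.71 ± 0.15, limma adjusted p = 0.00161), and Il17ra, the interleukin-17 receptor, had a difference of -4.04 ± 0.19 (adjusted p = 0.00175). Both were higher in the Ly6G+ library than in either HSC/P library. Flt3, a receptor of multipotent and lymphoid progenitors, was low in all libraries, at 13.6 and 8.06 against 0.502 TPM (2.06 ± 0.39, adjusted p = 0.0176, and 0.0563 with a filter of 1 TPM in 1 library).

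Surface and regulator genes of stem and progenitor cells were higher in HSC/P. Of 21 tested members of a list of 22, 18 passed in that direction and 2 in the other, with a median of 2.95, and 6 members stood under 1 TPM in Ly6G+ cells. Angpt1, the ligand of the receptor Tie2, stood at 90.0 and 120 TPM against 0.760 TPM (4.87 ± 0.22, limma adjusted p = 0.00175). Spns2, a sphingosine-1-phosphate transporter, had a difference of 4.15 ± 0.18 (adjusted p = 0.00168). This difference was 1.24 ± 2.01 and lost its call (adjusted p = 0.605) when the pair was set against all 4 Ly6G+ libraries. Those libraries are of different genotypes and are not replicates, so genotype enters that value and its error. The transcription factor gene Sox4 had a difference of 3.57 ± 0.18 (adjusted p = 0.00184). Mycn, a MYC family gene, stood at 39.0 and 94.4 against 1.36 TPM (3.55 ± 0.57, adjusted p = 0.0124, and 0.0511 with a filter of 1 TPM in 1 library). Prom1, the membrane protein CD133, was higher in Ly6G+ cells, at 3.83 and 3.85 against 9.60 TPM (-2.46 ± 0.20, adjusted p = 0.00325). Ly6a, which encodes the stem cell antigen Sca-1, stood at 20.7 and 9.74 against 21.8 TPM (-2.02 ± 0.50, adjusted p = 0.034). The TPM of Ly6a in HSC/P replicate 1 was close to that of Ly6G+ cells, and the call was lost without scaling and with upper quartile scaling.

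Transcription factors of the stem cell program showed the same side. Of 22 tested members 15 were higher in HSC/P and 1 in Ly6G+ cells (median 1.94), and 7 members, Zfpm1 and Tal1 among them, stood under 1 TPM in Ly6G+ cells and entered the test through HSC/P alone. Zfpm1, the GATA cofactor FOG1, stood at 83.0 and 147 TPM against 0.192 TPM (5.83 ± 0.39, limma adjusted p = 0.00247). Tal1 stood at 76.2 and 112 against 0.957 TPM (4.49 ± 0.27, adjusted p = 0.00218), Gata2 at 81.8 and 118 against 2.69 TPM (3.45 ± 0.26, adjusted p = 0.00287) and the leukemia-associated homeobox gene Meis1 at 67.2 and 93.2 against 2.91 TPM (3.05 ± 0.24, adjusted p = 0.00308). Each was higher in HSC/P replicate 2 than in replicate 1, and both were far above the Ly6G+ library. Lmo2, an adaptor in the TAL1 complex, had a difference of 2.68 ± 0.14 and Myc one of 3.24 ± 0.16. Hhex, a homeobox gene, was the member higher in Ly6G+ cells (-1.85 ± 0.13, adjusted p = 0.00263), a call lost without scaling.

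Granulocyte transcription factors went in both directions, with 13 of 20 tested members higher in Ly6G+ cells and 3 in HSC/P (median -2.72). Cebpa, the C/EBP factor that starts the granulocyte program, stood at 30.2 and 29.8 TPM in HSC/P and at 0.610 TPM in Ly6G+ cells (3.31 ± 0.18, limma adjusted p = 0.00197). Cebpe, needed for secondary granules, stood at 77.4 and 55.6 against 153 TPM (-2.71 ± 0.27, adjusted p = 0.00439). Cebpb stood at 20.6 and 9.12 against 219 TPM (-5.37 ± 0.53, adjusted p = 0.00445), and Cebpd at 38.4 and 26.3 against 332 TPM (-4.84 ± 0.29, adjusted p = 0.00214). Cebpa was thus the C/EBP gene of these 4 that was higher in HSC/P. Mxd1, a MYC antagonist, stood at 10.6 and 12.7 against 411 TPM (-6.50 ± 0.16, adjusted p = 0.00161), opposite to Myc. Spi1, which encodes PU.1, had a difference of -3.89 ± 0.31 (adjusted p = 0.0032), and the quiescence-related genes Klf2 and Klf6 had differences of -4.89 ± 0.18 and -4.51 ± 0.15. Gfi1, a transcriptional repressor that acts in the neutrophil lineage, stood at 33.3 and 19.6 against 9.76 TPM. Its scaled difference of -0.12 ± 0.39 (adjusted p = 0.796) turned to 1.30 without scaling.

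**Figure D3:**
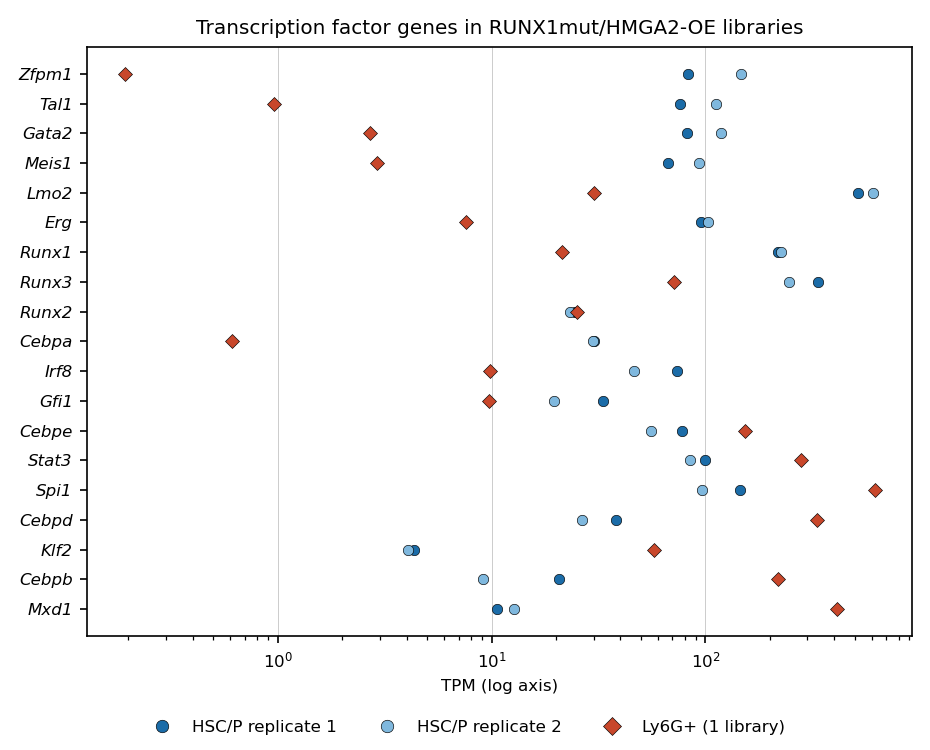
TPM (log axis) of 19 transcription factor genes, with 1 point per RUNX1mut/HMGA2-OE library: HSC/P replicates 1 and 2 as circles and the single Ly6G+ library as a diamond. Cebpa lies at 30.2 and 29.8 TPM in HSC/P against 0.610 TPM in Ly6G+ cells, and Cebpe, Cebpd, Cebpb and Mxd1 lie in the other order.

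The RUNX family was expressed in both cell types. Beside Runx1, the shared subunit Cbfb, which stabilizes RUNX proteins on DNA, stood at 74.4 and 74.8 TPM against 13.9 TPM (0.88 ± 0.13, limma adjusted p = 0.0102). Runx3 stood at 338 and 245 against 71.2 TPM, with a scaled difference of 0.49 ± 0.26 that did not pass (adjusted p = 0.175) and that passed without scaling and with upper quartile scaling. Runx2 stood at 24.5 and 23.2 against 25.2 TPM, nearly level in TPM. Its scaled difference of -1.54 ± 0.15 passed (adjusted p = 0.00462), and the call was lost without scaling and, at -0.32 ± 0.45 (adjusted p = 0.547), against all 4 Ly6G+ libraries. Reads shared between these related genes were not examined.

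Innate sensing and inflammatory genes were higher in Ly6G+ cells. Among 19 tested of 24 pattern recognition and inflammasome genes, 18 passed in that direction and 0 in the other (median -3.08). Il1b, the cytokine interleukin-1 beta, stood at 3.35 and 1.59 against 415 TPM (-8.29 ± 0.36, limma adjusted p = 0.00166), its antagonist Il1rn at 1.51 and 0.719 against 158 TPM (-7.50 ± 0.28, adjusted p = 0.00161) and the lipopeptide receptor Tlr2 at 6.24 and 4.86 against 96.7 TPM (-5.33 ± 0.22, adjusted p = 0.00164). Feedback and target genes of NF-kB had a median of -1.53, with 12 of 19 tested members higher in Ly6G+ cells and 2 in HSC/P. The inhibitor genes Nfkbia (-3.66 ± 0.30) and Nfkbiz (-3.96 ± 0.27) were on the Ly6G+ side, and Nfkb1, a subunit of the factor itself, was on the HSC/P side (0.88 ± 0.14, adjusted p = 0.0123). Of 14 tested immediate early genes, which answer to stress, handling or stimulation within minutes, 13 were higher in Ly6G+ cells and 0 in HSC/P (median -3.59). Dusp1, a MAP kinase phosphatase, stood at 4.33 and 9.12 against 204 TPM (-6.23 ± 0.41, adjusted p = 0.00246). Fos stood at 3.08 and 17.4 against 60.6 TPM (-4.25 ± 0.95, adjusted p = 0.0264, and 0.0908 with a filter of 1 TPM in 1 library), with a wide gap within the HSC/P pair. Isolation differed between the cell types, with CD117 selection before the sort for HSC/P alone, and cannot be told apart from cell type in these values.

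Interferon response genes were higher in Ly6G+ cells in 18 of 24 tested members and higher in HSC/P in 3 (median -1.96). Oas3, an RNA sensor, stood at 9.81 and 9.53 TPM against 70.2 TPM (-4.19 ± 0.16, limma adjusted p = 0.00161), and Irf7, the regulator of interferon genes, had a difference of -3.48 ± 0.15 (adjusted p = 0.00164). Bst2, the virus-tethering protein tetherin, was one of those on the other side, at 125 and 108 against 13.7 TPM (1.53 ± 0.17, adjusted p = 0.00565).

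Genes of the BCL2 family, which set the threshold of apoptosis, were split, with 4 of 15 tested members higher in HSC/P and 7 in Ly6G+ cells, and the median of -0.80 turned to 0.61 without scaling. Bak1, a pore-forming death effector, stood at 83.8 and 76.4 TPM against 0.910 TPM (4.34 ± 0.17, limma adjusted p = 0.00162), and the survival gene Bcl2 at 10.2 and 13.1 against 0.522 TPM (2.15 ± 0.25, adjusted p = 0.00589). Mcl1, the survival factor that neutrophils depend on, stood at 85.4 and 89.1 against 219 TPM (-2.83 ± 0.12, adjusted p = 0.00164). Bnip3l, a mitophagy receptor, was also higher in Ly6G+ cells (-2.78 ± 0.19, adjusted p = 0.00249). Survival and death genes thus lay on both sides. Bcl2 and Bak1 were among 3 tested members that stood under 1 TPM in Ly6G+ cells and entered the test through HSC/P alone. Over all tested genes, 31.7% were higher in HSC/P and 33.2% in Ly6G+ cells.

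Genes of DNA replication were higher in HSC/P in 32 of 38 members, all tested, and 0 were higher in Ly6G+ cells (median 1.37). Pcna, the sliding clamp, stood at 465 and 478 TPM against 32.1 TPM (2.34 ± 0.12, limma adjusted p = 0.00179), and the helicase subunit gene Gins1 at 68.1 and 53.1 against 3.69 TPM (2.36 ± 0.23, adjusted p = 0.00448). Rrm2, a ribonucleotide reductase subunit, stood at 135 and 136 against 51.5 TPM, and its scaled difference of -0.12 ± 0.12 did not pass and turned to 1.38 without scaling. Mitosis genes were not set apart in the same way. Of 34 members, all tested, 23 did not pass. Only 3 were higher in HSC/P and 8 in Ly6G+ cells, shares below the 31.7% and 33.2% over all tested genes. The median of -0.20 turned to 1.27 without scaling and to 0.42 with upper quartile scaling. Mki67, the proliferation antigen Ki-67, stood at 71.5 and 70.2 against 10.7 TPM (1.18 ± 0.14, adjusted p = 0.0061), and Top2a, a topoisomerase of dividing cells, at 212 and 237 against 40.9 TPM (0.93 ± 0.13, adjusted p = 0.00864). RNA of both was present in the Ly6G+ library. Cdc25b, a mitotic phosphatase, had the largest difference of the list toward Ly6G+ cells (-1.40 ± 0.23, adjusted p = 0.0124), with 22.9 and 31.4 against 25.6 TPM, and it turned to 0.07 without scaling. Cyclins, kinases and their inhibitors had 10 of 20 tested members higher in HSC/P and 5 in Ly6G+ cells (median 0.74), against the same 31.7% and 33.2%. Cdk4, the G1 kinase, stood at 381 and 411 against 36.5 TPM (1.91 ± 0.12, adjusted p = 0.00225), and E2f2, a cell cycle transcription factor gene, was on the other side (-2.30 ± 0.17, adjusted p = 0.00287).

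Genes of the translation machinery were higher in HSC/P. Of 75 tested cytosolic ribosomal protein genes 72 were higher in HSC/P and 1 in Ly6G+ cells (median 2.77), and 55 met the 4-fold rule. Rpl38 stood at 4117 and 3906 TPM against 34.7 TPM (5.31 ± 0.13, limma adjusted p = 0.00161), and Rps21 at 4765 and 3968 against 35.3 TPM (5.41 ± 0.19, adjusted p = 0.00161). Rpl36, a short gene, was the member higher in Ly6G+ cells, at 4904 and 4666 against 7060 TPM (-2.08 ± 0.16, adjusted p = 0.00295), and its difference turned to 1.21 when the pair was set against all 4 Ly6G+ libraries. Rpl38 had a difference of 2.91 ± 1.84 in that setting, and its call was lost (adjusted p = 0.204). Ribosomal protein genes have near-identical processed copies between which reads can be split, and some switched between the HSC/P libraries, such as Rps15a at 1669 and 17261 TPM, so single values are uncertain. Genes of ribosome biogenesis had 30 of 35 members higher in HSC/P and 2 in Ly6G+ cells (median 2.27). The nucleolar methyltransferase gene Fbl stood at 394 and 366 against 9.20 TPM (3.78 ± 0.14, adjusted p = 0.00161), the nucleolar chaperone gene Npm1 at 1285 and 1246 against 49.1 TPM (3.15 ± 0.12, adjusted p = 0.00162), and the RNA helicase gene Ddx21 had a difference of 3.61 ± 0.15 (adjusted p = 0.00164). The HSC/P libraries lay close together for Fbl and Npm1, and far above the Ly6G+ library.

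Mitochondrially encoded genes, parts of the respiratory chain, were higher in HSC/P in 13 of 13 (median 2.53). The largest values were those of mt-Nd4l, at 2729 and 2234 TPM against 4.59 TPM (7.41 ± 0.19, limma adjusted p = 0.00161), and mt-Nd3, at 5829 and 5137 against 11.9 TPM (7.26 ± 0.16, adjusted p = 0.00161), whose transcripts are 297 and 348 nt long. The longer mt-Nd2, with 1038 nt, stood at 1276 and 1334 against 55.8 TPM (3.02 ± 0.12), and mt-Nd5, with 1824 nt, had a difference of 2.56 ± 0.14. Nuclear-encoded genes of the chain had 5 of 43 members higher in HSC/P and 21 in Ly6G+ cells, and their median of -0.44 turned to 1.07 without scaling and to 0.19 with upper quartile scaling.

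Transcript length moved with the difference between the cell types. Genes whose longest annotated transcript was under 300 nt had a median log2 difference of 2.07 (51 genes), those of 300 to 349 nt one of 1.65 (32 genes) and those of 350 to 399 nt one of 1.10 (46 genes). At 400 to 449 nt the median was -0.44 (70 genes), at 450 to 499 nt it was 0.17 (69 genes), and from 500 nt up it lay between 0.00 and 0.07. The genes mt-Nd4l, mt-Nd3, Rps21, Rpl38 and Rpl36 have no transcript of 500 nt or more, nor do Stfa2l1 and S100a8, whose longest transcripts have 419 and 498 nt, and the part of length in their values was not tested. Among members with a transcript of at least 500 nt, 68 of 70 ribosomal protein genes and 10 of 10 mitochondrially encoded genes were higher in HSC/P, with medians of 2.74 and 2.12.

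**Figure D4:**
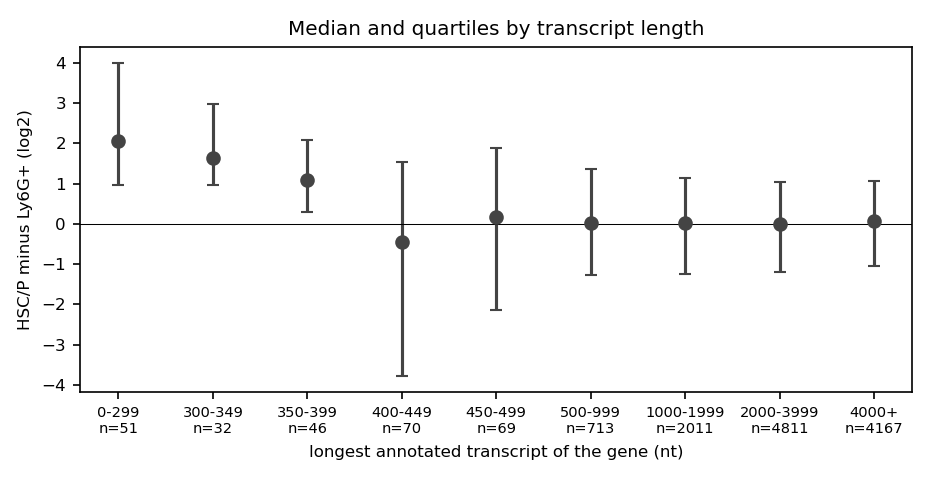
Median log2 difference of HSC/P minus Ly6G+ cells (points) with the lower and upper quartiles (bars) in classes of the longest annotated transcript per gene, with the number of genes under each class. The median is 2.07 below 300 nt, -0.44 at 400 to 449 nt and near 0 from 500 nt up.

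Metabolic genes differed by pathway. Glycolysis genes were higher in Ly6G+ cells in 15 of 22 members and higher in HSC/P in 2 (median -1.63). The lactate exporter gene Slc16a3 stood at 14.8 and 16.7 TPM against 235 TPM (-5.30 ± 0.14, limma adjusted p = 0.00161), the glucose transporter gene Slc2a3 at 35.2 and 30.8 against 430 TPM (-5.17 ± 0.16, adjusted p = 0.00161), and Pkm, pyruvate kinase, at 456 and 340 against 1269 TPM (-3.20 ± 0.25, adjusted p = 0.00298). The genes on the other side were Pfkm, a phosphofructokinase (2.85 ± 0.21, adjusted p = 0.00287), and Pdk1, which restrains pyruvate oxidation in mitochondria (2.49 ± 0.21, adjusted p = 0.00353). Autophagy and lysosome genes were higher in Ly6G+ cells in 24 of 30 members and higher in HSC/P in 0 (median -1.81). The protease gene Ctsd stood at 209 and 227 against 1030 TPM (-3.75 ± 0.12, adjusted p = 0.00161), and Tfeb, the regulator of lysosomal genes, at 12.4 and 8.19 against 44.4 TPM (-3.48 ± 0.30, adjusted p = 0.00357). Of 26 tested sterol and fatty acid synthesis genes, 9 were higher in HSC/P and 6 in Ly6G+ cells, against 31.7% and 33.2% of all tested genes. Their median of 0.20 turned to -0.06 without HSC/P replicate 1. Fasn, fatty acid synthase, stood at 29.8 and 33.6 against 1.14 TPM (2.82 ± 0.18, adjusted p = 0.00234), whereas the sterol demethylation gene Msmo1 stood at 18.9 and 17.2 against 57.7 TPM (-3.10 ± 0.16, adjusted p = 0.00184). Of unfolded protein response genes 7 of 23 were higher in HSC/P and 6 in Ly6G+ cells (median 0.33), shares no larger than the 31.7% and 33.2% over all tested genes. The chaperone gene Hyou1 was on the HSC/P side (1.66 ± 0.24, adjusted p = 0.00952) and the stress factor gene Ddit3 on the other (-2.28 ± 0.30, adjusted p = 0.00771, lost without scaling).

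Genes around HMGA2 and the let-7 microRNA, which represses HMGA2 and other fetal genes, were in both directions. Of 11 tested members 6 were higher in HSC/P and 4 in Ly6G+ cells, against 31.7% and 33.2% of all tested genes (median 1.40). Hmga1, the close relative of HMGA2, stood at 534 and 492 TPM against 33.1 TPM (2.42 ± 0.14, limma adjusted p = 0.00203). Arid3a, a DNA-binding factor, stood at 20.1 and 19.9 against 87.7 TPM (-3.56 ± 0.14, adjusted p = 0.00161), and Lin28a, the blocker of let-7 maturation, was low, at 3.63 and 3.09 against 15.3 TPM (-3.24 ± 0.22, adjusted p = 0.00248). Chromatin regulators had 11 of 29 tested members higher in HSC/P and 8 in Ly6G+ cells (median 0.24), near the 31.7% and 33.2% over all tested genes. Dnmt3b, a DNA methyltransferase, stood at 18.9 and 24.8 against 0.763 TPM (2.68 ± 0.24, adjusted p = 0.00382), while Lbr, the lamin B receptor tied to the lobed granulocyte nucleus, stood at 102 and 99.96 against 247 TPM (-2.79 ± 0.12, adjusted p = 0.00168).

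Some of the largest differences toward HSC/P by the naming rule were in genes outside the lists. Ybx3, a cold shock domain protein gene, stood at 321 and 325 TPM against 1.07 TPM (6.17 ± 0.13, limma adjusted p = 0.00161), Hnrnpa0, a nuclear ribonucleoprotein gene, at 315 and 343 against 2.39 TPM (5.32 ± 0.13, adjusted p = 0.00161) and Pabpc4, a poly(A) binding protein gene, at 187 and 200 against 1.83 TPM (4.87 ± 0.13, adjusted p = 0.00161). The HSC/P libraries lay close together for each of these genes. The kinase gene Mink1 (4.76 ± 0.25, adjusted p = 0.00184) and Isoc2a (4.96 ± 0.17, adjusted p = 0.00161) passed too, both under 1 TPM in Ly6G+ cells.

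Markers of other blood cells were present in all 3 libraries, and their part in the results was not tested. The 22 erythroid markers in the table summed to 2041 and 3728 TPM in HSC/P and to 7122 TPM in Ly6G+ cells, with 0 of them at 0 in any library. Hbb-bs, adult beta globin, stood at 196 and 449 against 4934 TPM (-5.57 ± 0.54, limma adjusted p = 0.00434, with -1.12 ± 1.83 and adjusted p = 0.608 against all 4 Ly6G+ libraries), while Ank1, of the erythroid membrane skeleton, stood at 14.9 and 17.1 against 0.720 TPM (2.32 ± 0.21, adjusted p = 0.00378). Over the list, 8 of 22 tested members were higher in HSC/P and 6 in Ly6G+ cells, near the 31.7% and 33.2% over all tested genes. Markers of megakaryocytes summed to 1565 and 3998 TPM in HSC/P and to 753 TPM in Ly6G+ cells, and 13 of 19 tested members were higher in HSC/P and 1 in Ly6G+ cells. The HSC/P libraries stood apart there, with Pf4, platelet factor 4, at 339 and 983 TPM, and Itga2b, the integrin chain CD41, at 313 and 640 TPM against 8.77 TPM in Ly6G+ cells (4.08 ± 0.47, adjusted p = 0.00593). Markers of B cells summed to 4629 and 1267 TPM in HSC/P and to 983 TPM in Ly6G+ cells, whereas 13 of 22 tested members were higher in Ly6G+ cells and 1 in HSC/P, with a median of -0.94 that turned to 0.053 without scaling. Immunoglobulin kappa, Igkc, made up most of the gap within the pair, at 3597 and 525 TPM, and its difference from 116 TPM in Ly6G+ cells did not pass (2.04 ± 1.31, adjusted p = 0.243). Monocyte and macrophage markers summed to 1051 and 704 TPM in HSC/P and to 1130 TPM in Ly6G+ cells, with 9 of 21 tested members higher in Ly6G+ cells and 0 in HSC/P and a median of -0.90 that turned to 0.27 without scaling. Ly6c2, which immature granulocytes share with monocytes, stood at 182 and 176 against 663 TPM (-3.40 ± 0.12, adjusted p = 0.00161). T and NK cell markers were low, summing to between 51.6 and 71.1 TPM, and stromal and endothelial markers to 73.6, 91.8 and 9.84 TPM. Of 16 tested mast cell, basophil and eosinophil markers, 3 were higher in HSC/P, 4 were higher in Ly6G+ cells and 9 did not pass. One of these markers, Hdc, is also on the list of mature neutrophil genes. The mast cell protease gene Cpa3 (2.94 ± 0.13, adjusted p = 0.00168) was higher in HSC/P, and Hdc, the histamine-forming enzyme, in Ly6G+ cells (-4.43 ± 0.34, adjusted p = 0.00299).

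HSC/P and Ly6G+ cells were also measured in the mice with HMGA2-OE and no RUNX1 mutation, with 1 library of each cell type. That HSC/P library held 136 TPM of Ly6g, against 7.28 and 16.8 TPM in the mutant pair. It held 61.8 TPM of Kit, against 155 and 134 TPM. The makeup of the sorted cells and the genotype cannot be told apart in the comparisons below. Across 12686 genes tested in the 5 libraries, the differences of HSC/P minus Ly6G+ in the genotypes correlated at a Pearson r of 0.870 across genes, a description in which libraries share nothing but their cell type and HMGA2-OE. Of these 12686 genes, 1624 were at least 4-fold higher in Ly6G+ cells with the mutation and 2022 without it. In both lists were 1403, 86.4% of the former and 69.4% of the latter. Those at least 4-fold higher in HSC/P numbered 932 and 1442 of the 12686, with 699 in both lists, 75% and 48.5%. The 4-fold rule asked for 2 HSC/P libraries with the mutation and for 1 without it. In limma the interaction of cell type and mutation called 0 of 12686 genes (0%), with a smallest adjusted p of 0.128, while 2355 genes (18.6%) had an unadjusted p under 0.05, 1028 of them with a higher value of HSC/P minus Ly6G+ in the mutant and 1327 with a lower one. The fit had 1 residual degree of freedom.

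Values of single genes are given side by side for the genotypes, and none of these interactions passed the adjusted test. Olfm4, a secondary granule glycoprotein gene, stood at 3.23 and 4.38 TPM in RUNX1mut/HMGA2-OE HSC/P and at 130 TPM in the Ly6G+ cells of that genotype, against 125 TPM in HMGA2-OE HSC/P and 21.8 TPM in HMGA2-OE Ly6G+ cells. The interaction was -6.00 ± 0.27 (limma adjusted p = 0.128). Runx1 had a difference of 1.90 with the mutation and -0.02 without it, and the interaction was 1.92 ± 0.17 (adjusted p = 0.137). Over both genotypes the cell type difference of Runx1 was 1.08 ± 0.47 (adjusted p = 0.11). Kit had differences of 3.39 and 1.59 (adjusted p of the interaction = 0.172). S100a8 had differences of -3.01 with the mutation and -6.52 without it (3.51 ± 0.35, adjusted p = 0.137), and S100a9 of -6.16 and -4.39 (-1.77 ± 0.32, adjusted p = 0.186). S100a8 took 3.11% of TPM in the mutant Ly6G+ library and 55.01% in that of HMGA2-OE, and S100a9 took 14.41% and 7.125%. Hbb-bs had differences of -5.50 and 1.55 (-7.05 ± 0.91, adjusted p = 0.164), at 28.8 TPM in HMGA2-OE Ly6G+ cells against 4934 TPM in the mutant. The erythroid list as a whole had a median of 0.58 with the mutation and of 3.24 without it, a gap that was not tested as a list. Secondary granule genes had a median of -5.72 with the mutation and -4.58 without it, and HMGA2-OE HSC/P held more of their RNA than the mutant pair, with Ltf at 818 TPM against 151 and 290 TPM and Lcn2 at 1819 against 350 and 442 TPM. Their interactions were -2.02 ± 0.72 and -2.25 ± 0.30 (adjusted p = 0.303 and 0.164).

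Of the 16 genes with the smallest interaction p, 8 in each direction, 15 had an annotated transcript under 500 nt, against 49.1% of tested genes. Over all tested genes, 23.4% of genes with such a transcript had an unadjusted p under 0.05, against 13.6% of genes whose transcripts were all at least 500 nt long, and the part of length in these values was not tested. Rps29, a ribosomal protein gene, stood at 1977 and 1966 TPM against 49.98 TPM with the mutation and at 1500 against 854 TPM without it (5.53 ± 0.18, limma adjusted p = 0.128). Romo1, a mitochondrial membrane protein gene, stood at 193 and 185 against 39.3 TPM with the mutation and at 180 against 912 TPM without it (5.64 ± 0.18, adjusted p = 0.128). In both genes the HSC/P values were alike between the genotypes and the Ly6G+ values were not.

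**Figure D5:**
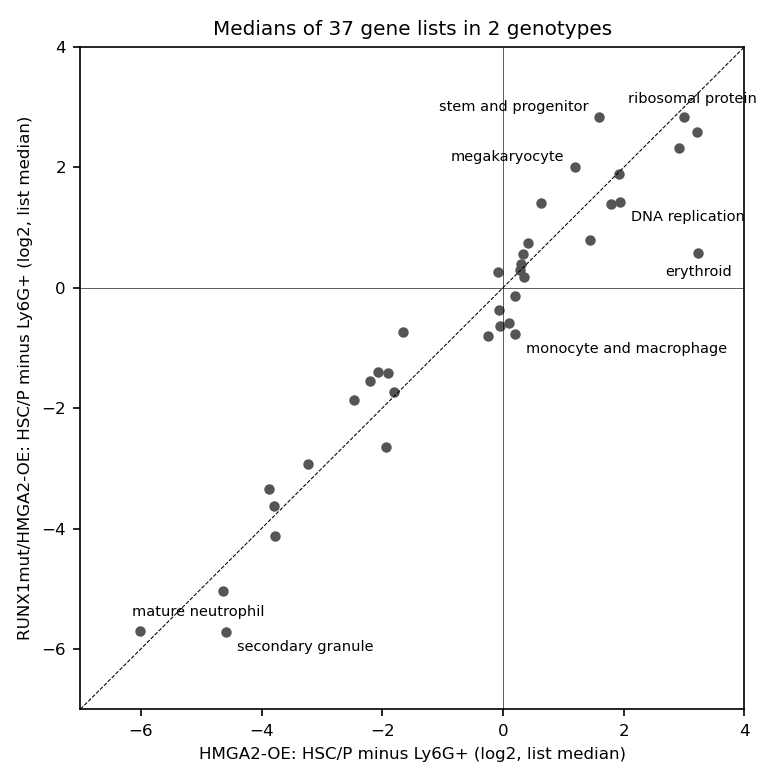
Median log2 difference of HSC/P minus Ly6G+ cells in 37 gene lists, with HMGA2-OE mice on the x axis (1 library per cell type) and RUNX1mut/HMGA2-OE mice on the y axis (2 HSC/P libraries and 1 Ly6G+ library), 1 point per list and a dashed line at equality. Secondary granule, tertiary granule and mature neutrophil genes lie at the lower left, erythroid markers lie at 3.24 and 0.58 on the x and y axes, and secondary granule genes lie at -4.58 and -5.72.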

How the data were processed

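RNA sequencing of bone marrow cells gave 1 table for the whole series, whose unit was read from the values: the authors deposited TPM per gene, since no column holds whole numbers and each sums to just under the same total. Reads went through bcl2fastq, CASAVA 1.8 and kallisto on mouse build mm10, per the submitters' processing notes. No source used here gives the kallisto version or the annotation release. The table lists 28987 Ensembl genes, of which 27475 took symbols, coordinates and transcript lengths from GENCODE M21, while 1512 had no match and held up to 1.692% of a library's TPM.

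Genes at 1 TPM or more in 2 of the 3 libraries were scaled by trimmed mean log ratios without weights (trims 0.3 and 0.05) and tested as log2(scaled TPM + 1) with limma 3.58.1 in R 4.3.3, with a variance trend, two-sided, and p-values were adjusted by Benjamini-Hochberg with a threshold of 0.05. Errors after ± are standard errors from limma. Fold changes on this scale understate those of genes with low TPM. The interaction with the RUNX1 mutation was fitted in the 5 libraries with HMGA2-OE. The procedure was run on simulated data in which the Ly6G+ library varied like the HSC/P pair and only a small share of genes differed. Those data therefore cannot test the assumed spread of the lone Ly6G+ library, or the scaling where most genes differ. Figures were drawn with matplotlib 3.10.9 in Python 3.11.15.

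Alternatives were other pseudocounts (0.1 and 5), filters, scalings, sets of libraries and fold limits, and each HSC/P library left out. The comparison, the 37 gene lists (921 memberships, 907 in the table) and the alternatives were chosen with earlier results of these data known. Named were Kit, Ly6g, Hmga2 and Runx1, marker genes of progenitors and Ly6G+ granulocytes, the largest passing differences at 10 TPM or more in each direction, up to 6 members of each list by size and up to 2 against its median, and 8 interaction genes in each direction. Pseudogenes and clone names enter counts only, not every gene that the rule names is reported here, and Cebpe, Gfi1, Pf4 and Jchain were picked after their values were seen. Promoters came from RefSeq on GRCm38.p6.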

Additional observations from a re-analysis of the deposited data

Results flagged for a closer look

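For 4 gene lists the median difference of HSC/P minus Ly6G+ had opposite signs in the genotypes when all 5 libraries with HMGA2-OE were scaled together, and the difference between the genotypes was not tested in any of them. Mitosis genes had a median of -0.13 with the RUNX1 mutation (-0.28 and -0.04 in the HSC/P libraries) and of 0.20 without it. Sterol and fatty acid synthesis genes had 0.26 with the mutation (0.47 and 0.00) and -0.09 without it. Monocyte and macrophage markers had -0.77 with the mutation (-0.78 and -0.76) and 0.21 without it. T and NK cell markers had -0.58 with the mutation (-0.54 and -0.63) and 0.10 without it. The lone libraries of the Ly6G+ groups and of HMGA2-OE HSC/P give no spread for these medians.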

How the results depend on the processing

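The counts of genes higher in HSC/P (3856) and in Ly6G+ cells (4036) became 7646 and 1562 without scaling, and 1927 and 2007 among the 5969 tested genes with every transcript at 500 nt or longer, a setting chosen after seeing the data that tests fewer genes. Genes at least 4-fold higher in HSC/P (1014) numbered 1843 and 369 with pseudocounts of 0.1 and 5 TPM, 3353 without scaling, 1751 with upper quartile scaling, 415 among genes with every transcript at 500 nt or longer, and 3018 and 259 at 2-fold and 8-fold. Genes at least 4-fold higher in Ly6G+ cells (1562) numbered 524 without scaling, 976 with upper quartile scaling, 740 among genes with every transcript at 500 nt or longer, and 3111 and 714 at 2-fold and 8-fold. Leaving out an HSC/P library gave 2976 to 3224 genes higher in HSC/P and 3292 to 3471 higher in Ly6G+ cells in an additive fit to the libraries with HMGA2-OE, against 4013 and 4165 with all 5 of them. The interaction called 0 genes, but 1 gene with a filter of 5 TPM, listed only by an identifier that the annotation does not hold (chosen after its value was seen), and 3369 genes with no filter, a setting that adds genes near 0 TPM. Without either HSC/P library it has no residual degrees of freedom and gives no test. The cause of these shifts was not tested.

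Without scaling, the medians turned to 0.74 for primary granule, 0.61 for BCL2 family, 1.27 for mitosis, 1.07 for nuclear-encoded respiratory chain, 0.27 for monocyte, 0.053 for B cell and 0.36 for T and NK cell genes, and Cdc45 turned to 1.21, Rrm2 to 1.38, Gfi1 to 1.30 and Cdc25b to 0.065. With upper quartile scaling the values were 0.42 for mitosis, 0.19 for respiratory chain genes, 0.36 for Cdc45, 0.48 for Gfi1 and 0.51 for Rrm2, and with no filter 0.074 for mitosis, 0.013 for Cdc45, 0.145 for Gfi1 and 0.15 for Rrm2. In the additive fit Cxcr1 turned to -0.57, Rrm2 to 0.17, Gfi1 to 0.023, Romo1 to -1.62 and Rps12 to 1.62, and against all 4 Ly6G+ libraries Cxcr1 turned to -0.90, Rpl36 to 1.21, Romo1 to -1.90, Rps12 to 0.82 and Hba-a1 to 0.15. Leaving out an HSC/P library gave medians of -0.062 to 0.42 for sterol and fatty acid synthesis genes and of -0.020 to 0.94 for mast cell, basophil and eosinophil markers. No paired analysis was possible because the single Ly6G+ library carries no replicate number. Depth is unknown for TPM, which limits what can be said of genes near 1 TPM.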

Other observations

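The HSC/P libraries differed from each other in genes of other lineages. Fcer1a, the high-affinity IgE receptor chain of mast cells and basophils, stood at 0.287 and 46.0 TPM, and Il5ra, the interleukin-5 receptor of eosinophil progenitors, at 0.657 and 26.6 TPM, with 0.546 and 0.837 TPM in Ly6G+ cells. The immunoglobulin joining chain gene Jchain stood at 124 and 18.1 TPM in HSC/P and at 9.32 TPM in Ly6G+ cells, and its difference did not pass (0.81 ± 1.27, limma adjusted p = 0.601). Members of the dendritic cell and MHC class II list were higher in HSC/P in 4 of 17 tested and higher in Ly6G+ cells in 4 (median 0.22). Over all tested genes the shares were 31.7% and 33.2%. Among 285 tested pseudogenes 124 (43.5%) were higher in HSC/P and 71 (24.9%) in Ly6G+ cells, against 31.8% and 33.5% of protein-coding genes.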
